A study of Mus musculus with 4 samples.

Results

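The genes described here are the translation initiation and elongation factors, taken as every protein-coding gene of the RNA-seq count table whose symbol starts with Eif or Eef. Of the 37620 gene identifiers in the table, 68 met that rule, under 67 symbols because Eef2k has a pair of identifiers, and they lie on 20 chromosomes. Of the 68, 65 had enough reads to be among the 16264 genes tested. The prefix also takes in relatives with other tasks, such as the kinases of eIF2, the proteins that hold the cap-binding factor, and the argonautes, whose older symbols begin with Eif2c.

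RNA was sequenced from 2 lines of mouse embryonic stem cells, with 2 biological replicates of each. Both lines come from CTCF-mAID cells, in which auxin triggers the degradation of the endogenous, tagged CTCF, a DNA-binding protein that shapes chromatin loops. WT_CTCF cells express wild-type CTCF from a vector in its place, and MUT_CTCF cells express CTCF whose threonine T668 was changed to alanine, so that it cannot carry the sugar O-GlcNAc there. Each line is 1 clone, selected for a CTCF level close to the endogenous one, so the mutation and the history of a clone cannot be told apart. Both lines were grown on gelatin in medium with 15% fetal bovine serum and 1000 U/mL of LIF, a factor that maintains stem cells. The comparison of MUT_CTCF with WT_CTCF asks which transcripts differ when this site of CTCF cannot be modified.

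The depth of WT_CTCF was 40977464 and 40824156 counted reads, and that of MUT_CTCF was 40899401 and 40524694. Values within a gene are given as normalised counts, which are counts scaled to the mean library by edgeR's TMM factors. Levels of different genes are compared only as RPKM, reads per kilobase of exons, scaled to the same library depth. Log2 fold changes are MUT_CTCF over WT_CTCF, and a gene is said to have passed the test when its adjusted p in edgeR's quasi-likelihood test, over all 16264 genes, was under 0.05. These p-values measure only the spread between the 4 libraries of 2 clones. With 2 libraries on each side, the smallest two-sided p that an exact permutation test allows is 0.333.

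The label of embryonic stem cells was checked against marker genes. All 10 stem cell markers were tested, and their summed level was 3990.2 and 3889 RPKM in WT_CTCF and 3828 and 3822 RPKM in MUT_CTCF, with Dppa5a the most abundant at 1458 RPKM. Among them Sox2 passed the test as higher in MUT_CTCF (log2 fold change 0.095, adjusted p 0.0358), and Dppa5a (-0.099, adjusted p 0.0157) and Utf1 (-0.21, adjusted p 0.00499) as lower. Markers of other cells were low. The 8 fibroblast or feeder markers summed to 13.9, 14.6, 15.0 and 16.4 RPKM in the order WT_CTCF 1, WT_CTCF 2, MUT_CTCF 1 and MUT_CTCF 2, most of it Thy1, with Lum at 0 counts in every library and Dcn at 6, 0, 4 and 0 counts. The 6 trophectoderm markers summed to 28.6, 26.5, 22.9 and 24.0 RPKM in the same order, with Krt8 the most abundant, and Cdx2 (-0.97, adjusted p 0.000227) and Krt8 (-0.30, adjusted p 0.0319) passed as lower. Of the 5 markers named as passed, DESeq2 gave Sox2, Dppa5a and Utf1, while Krt8 had an adjusted p of 0.0632 and Cdx2 was given none, and the exact test gave Utf1, Cdx2 and Krt8 but not Sox2 (0.104) or Dppa5a (0.0828). With library size only Krt8 did not pass (0.0509). With no filter on reads none of the 5 passed edgeR's quasi-likelihood test, with adjusted p from 0.117 for Cdx2 to 0.346 for Dppa5a. The 6 primitive endoderm markers summed to 2.47, 2.79, 3.08 and 3.67 RPKM, with Gata4 the most abundant. The ectoderm markers, 5 of 6 of them in the file, summed to 10.5, 10.6, 11.4 and 11.8 RPKM, with Nes the most abundant and Fgf5 at 0 counts in every library. By edgeR, DESeq2 and edgeR's exact test, 0 of the tested endoderm, ectoderm or feeder markers passed, and at an unadjusted p under 0.05 edgeR's quasi-likelihood test gave 2 of 4 endoderm markers, Gata6 (0.95, adjusted p 0.0733) and Sox17 (0.75, adjusted p 0.259), and 1 of 3 ectoderm markers, Otx2 (0.55, adjusted p 0.260), each with both MUT_CTCF libraries the higher, and 1 of 5 feeder markers, Col3a1, with both the lower (-1.52, adjusted p 0.288, at 26 and 23 counts in WT_CTCF and 12 and 5 in MUT_CTCF). Without MUT_CTCF 1, or without MUT_CTCF 2, none of the 5 that passed did so, with adjusted p from 0.381 to 0.529, while without WT_CTCF 1 Cdx2 still passed (0.000453), and without WT_CTCF 2 Cdx2 (0.00439) and Dppa5a (0.00393) did. For the others the adjusted p without WT_CTCF 1 or without WT_CTCF 2 was 0.205 and 0.313 for Sox2, 0.0602 and 0.0573 for Utf1 and 0.2 and 0.131 for Krt8, and without WT_CTCF 1 it was 0.58 for Dppa5a, with a log2 fold change of -0.055. Over all genes, edgeR's quasi-likelihood test passed 1.56% as higher and 1.61% as lower, and 15.3% had an unadjusted p under 0.05. These markers were named after their values were seen, and the part of such differences between the clones in the results for translation factors was not tested.

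Translation starts when eIF2 brings the initiator tRNA to the small ribosomal subunit, the cap-binding complex eIF4F recruits the mRNA, and eIF3 holds these parts together while the subunit scans for a start codon. The elongation factors eEF1 and eEF2 then deliver each aminoacyl-tRNA and move the ribosome along. Many mRNAs of this machinery begin with a run of pyrimidines, the terminal oligopyrimidine or TOP tract, through which growth signals control their translation together, and stem cells are known for a low rate of protein synthesis that rises as they differentiate.

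The starts of 5 member genes are shown because the tract at the first transcribed base is the best known sequence that members share. They are the members with an adjusted p under 0.05 that have an entry in the promoter table, and Eef1a1 and Eef2, the most abundant members by RPKM. Each window holds 40 bases before and 30 bases from the most upstream start that RefSeq gives the gene on build GRCm38.p6. Capitals mark the first of the window's longest runs of C and T.
Eef1b2: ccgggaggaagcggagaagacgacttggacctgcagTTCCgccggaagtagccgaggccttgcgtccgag
Eif3f: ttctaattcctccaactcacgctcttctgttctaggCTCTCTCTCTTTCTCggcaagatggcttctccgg
Eif5b: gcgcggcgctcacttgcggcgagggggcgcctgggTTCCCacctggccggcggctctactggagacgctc
Eef1a1: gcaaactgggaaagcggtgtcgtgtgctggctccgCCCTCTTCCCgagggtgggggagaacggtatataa
Eef2: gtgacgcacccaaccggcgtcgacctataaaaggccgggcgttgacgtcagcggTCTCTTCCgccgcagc
The windows are chr1:63176791-63176860 on the plus strand for Eef1b2, chr7:108934375-108934444 on the plus strand for Eif3f, chr1:37997970-37998039 on the plus strand for Eif5b, chr9:78481695-78481764 on the minus strand for Eef1a1 and chr10:81176591-81176660 on the plus strand for Eef2. Their marked runs have 4, 15, 5, 10 and 8 bases in the printed order. The run of Eif3f begins at position -4 and crosses the start, that of Eef1a1 begins at -5 and also crosses it, and that of Eef2 begins at the base numbered 15 from the start. These starts are those of the table, and the counts per gene do not show which start the cells used.

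Of the 67 member symbols, 53 matched a promoter of 300 bases in the table, which holds 27025 genes. Where a gene has several starts there, the most upstream was used. The 14 without an entry are Eef1d, Eef1g, Eif1a, Eif2b3, Eif2c2, Eif3e, Eif3h, Eif3i, Eif4e1b, Eif4e3, Eif4ebp1, Eif4ebp3, Eif4g2 and Eif6. Within 20 bases on each side of the start, the longest run of C and T had a median of 4 bases in the members, 5 bases in all promoters and 7 bases in 55 promoters of cytosolic ribosomal proteins. It reached 8 bases in 10 of 53 members (18.9%), in 15.9% of all promoters and in 26 of 55 ribosomal protein promoters (47.3%). By this measure the 53 members with an entry stood near all genes, and the ribosomal proteins apart from both. The measure leaves out Eef1d, Eef1g, Eif3e and Eif3h, which are counted below among the TOP mRNAs but have no entry. It also counts only 6 bases for Eef2, whose printed run of 8 reaches beyond the 20 bases searched.

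Further words were searched in the whole 300 bases on both strands, none of which contains another. CCGGAAG, the core that ETS factors bind, was in 16 of 53 member promoters (30.2%), in 9.14% of all promoters and in 38.2% of those of ribosomal proteins. CACGTG, the E-box that MYC and its relatives bind, was in 10 member promoters (18.9%), in 7.24% of all and in 9.09% of those of ribosomal proteins. AAGATGGC, a YY1 word, was in 5 member promoters (9.43%) against 2.87% of all, and TATAAA in 5 (9.43%) against 14.2% of all. GCATGCGC, part of the word that NRF1 binds, was in 5 member promoters (9.43%) against 2.81% of all, and TCGCGAGA was in 2 (3.77%) against 1.09% of all and 16.4% of those of ribosomal proteins. AGGGGGC, letters from the core that CTCF binds, was in 4 member promoters (7.55%), those of Eef1e1, Eif1ax, Eif2c4 and Eif5b, against 10.5% of all. Of the members that passed the test, Eef1b2 has the ETS word, Eif3f has the TATA word, the E-box and the YY1 word, and Eif5b has the CTCF letters alone. All promoters include those of genes not tested here, and the shares among tested or abundant genes were not taken. A match describes the letters and is not a measured binding site.

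Across the 65 tested members, 2 passed the test as higher in MUT_CTCF (3.08%) beside 253 of 16264 genes (1.56%), and 2 passed as lower (3.08%) beside 262 genes (1.61%). The higher ones are Eif5b and Eif2c2 and the lower ones are Eef1b2 and Eif3f. At an unadjusted p under 0.05 the test gave 3 members as higher and 17 as lower, 20 of 65 (30.8%). Of all genes it gave 1238 as higher and 1245 as lower, 2483 together (15.3%). Of protein-coding genes at 50 RPKM or more it gave 483 of 1367 (35.3%). Scaled by library size only, without TMM factors, 260 genes of the table passed as higher and 152 as lower, and of the members 2 as higher and 1 as lower, since Eif3f then had an adjusted p of 0.0672. In bulk RNA, fewer cells of a type and less RNA per cell cannot be told apart, which holds for every value here.

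These calls rest on all 4 libraries. Without MUT_CTCF 1, or without MUT_CTCF 2, 0 genes of the whole table passed edgeR's quasi-likelihood test in either direction. Without WT_CTCF 1, 130 genes were higher and 63 lower, with 0 members among them. Without WT_CTCF 2, 140 genes were higher and 102 lower, and the members among them were Eif2c2 (adjusted p 0.0152) and Eef1b2 (adjusted p 0.00398). With 1 library left in a group, the lone library is taken to vary as much as those of the other group, so these fits also hold fewer libraries to estimate the spread.

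The members' fold changes lay mostly just below 0. Of 65, 47 had a log2 fold change below 0 (72.3%) and 18 above, with a median of -0.037, while the median of all 16264 genes was 0.0034 and 49.2% of them lay below 0. Both MUT_CTCF libraries were above both WT_CTCF libraries for 7 members (10.8%) beside 3627 of all genes (22.3%), and below both for 31 members (47.7%) beside 3635 of all genes (22.3%), and for 27 the groups overlapped. With DESeq2's size factors 47 members were below 0, and with library size only 44 were, with a median of -0.025.

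A lean of this size was also seen among abundant genes in general, though not all members are abundant. The median level of the members was 52.2 RPKM and that of all tested genes 3.92 RPKM. Among the 1367 tested protein-coding genes at 50 RPKM or more, a limit chosen after the values were seen, 965 had a log2 fold change below 0 (70.6%), the median was -0.036, and both MUT_CTCF libraries lay below both WT_CTCF libraries for 47.5% and above for 13.8%. Of the 34 members at that level, 28 lay below 0 (82.4%), with a median of -0.035. The members under 50 RPKM were not set beside other genes of their level, and the part of level in the members' lean was not tested. Across 14654 protein-coding genes the log2 fold change and the level had a Spearman correlation of -0.20 (Pearson -0.16), and across the 65 members -0.050 (Pearson 0.019). These are correlations across genes, which share the same 4 libraries and are not independent replicates. With library size only, 883 of the 1367 abundant genes were below 0 and their median was -0.024, close to that of the members under the same scaling. Among these abundant genes 31 passed the test as higher and 123 as lower, and of the 34 members at that level 0 as higher and 2 as lower. At an unadjusted p under 0.05 edgeR's quasi-likelihood test gave 98 abundant genes as higher and 385 as lower, 483 of 1367 (35.3%). Of the members at that level it gave 11 of 34 (32.4%).

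**Figure D1:**
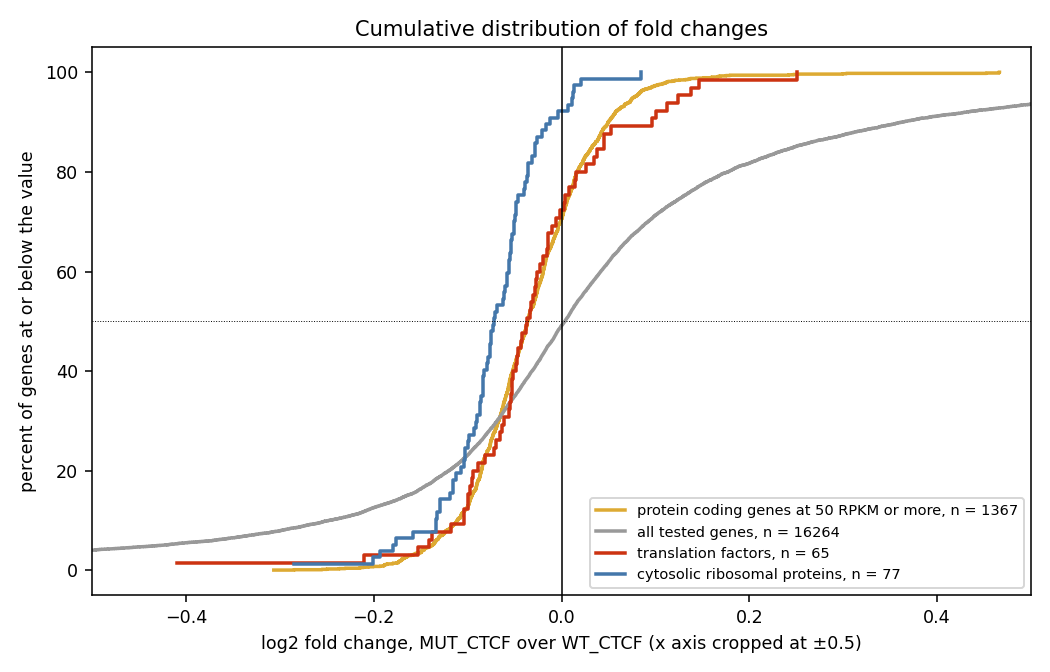
Cumulative percent of genes (y axis) at or below each log2 fold change of MUT_CTCF over WT_CTCF (x axis, cropped at both ends) for all 16264 tested genes, the 1367 protein-coding genes at 50 RPKM or more, the 65 members and the 77 ribosomal protein genes. The curve of the members crosses the middle at -0.037 and runs along that of the abundant genes (-0.036), while the ribosomal proteins lie further left (-0.072); with library size only the medians are -0.025, -0.024 and -0.060.

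The cytosolic ribosomal proteins, on which the factors act, had lower values. Of 77 tested, 71 had a log2 fold change below 0 (69 with library size only), and the median was -0.072. Of the 77, 61 had both MUT_CTCF libraries below both WT_CTCF libraries (79.2%). Beside this, 49.2% of all genes and 70.6% of the abundant ones lay below 0, and 22.3% and 47.5% had both mutant libraries below. The test was passed by 23 as lower (29.9%) and by 0 as higher. Of all 16264 genes 262 passed as lower, and of the 1367 abundant ones 123. At an unadjusted p under 0.05 edgeR's quasi-likelihood test gave 54 of the 77, none of them higher. It gave 1245 of all genes and 385 of the abundant ones as lower. For the ribosomal proteins DESeq2 gave 22 lower and 0 higher, and edgeR's exact test 14 lower and 0 higher. Their summed level was 51406.3 and 50261.6 RPKM in WT_CTCF and 48460.6 and 48632.2 RPKM in MUT_CTCF. For the members the sums were 13298 and 13213.8 RPKM in WT_CTCF and 13015.8 and 13160.6 RPKM in MUT_CTCF, and the members took 3.73%, 3.73%, 3.71% and 3.73% of the counts. Whether the fold changes of factors and ribosomal proteins differ was not tested.

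**Figure D2:**
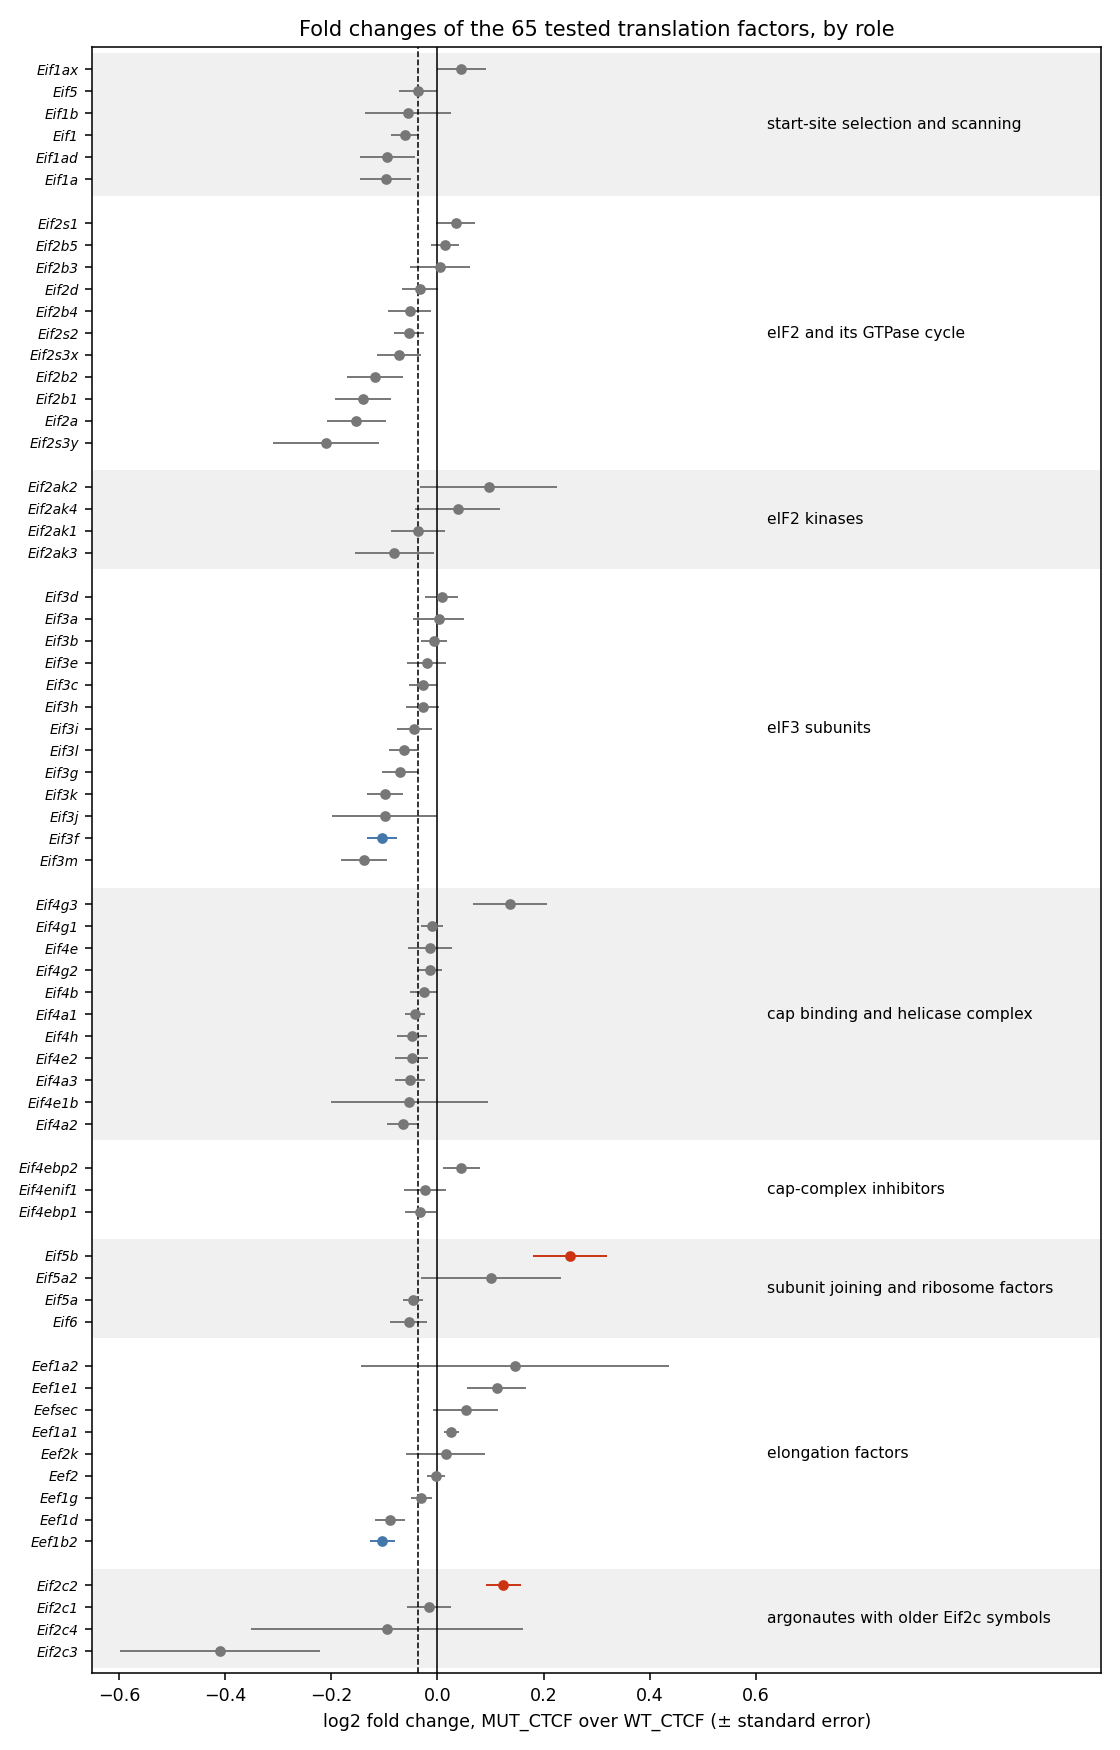
Log2 fold change of MUT_CTCF over WT_CTCF (x axis, with standard error bars) of each of the 65 tested members, grouped by role, with members that passed as higher in red, as lower in blue and the others in grey. The dashed line is the median of the members at -0.037; of the 65 points 47 lie below 0 (44 with library size only), and the extremes are Eif2c3 at -0.41 and Eif5b at 0.25.

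Start-site selection and scanning is the task of Eif1, Eif1a, Eif1ax, Eif1b and Eif5, and this group also holds Eif1ad, named for its eIF1A domain. Eif1, which guards the choice of start codon, was the most abundant of them at 284 RPKM and also had the smallest p. Its normalised counts were 24423 and 25209 in WT_CTCF and 23944 and 23628 in MUT_CTCF, so both mutant libraries were below both wild-type ones. The log2 fold change of -0.061 (SE 0.0267) did not pass, with an adjusted p of 0.251, and it was -0.039 without WT_CTCF 2. Of the 6 genes 5 had a log2 fold change below 0, from -0.098 for Eif1a to 0.045 for Eif1ax, the X-linked copy of the scanning factor. For 4 of them (66.7%) both MUT_CTCF libraries were below both WT_CTCF libraries and for 2 the groups overlapped. The share below in this way was 22.3% of all genes and 47.5% of the abundant ones. In this group 0 passed by edgeR's quasi-likelihood test (2 at an unadjusted p under 0.05), by DESeq2 or by the exact test. By edgeR's quasi-likelihood test 15.3% of all genes and 35.3% of the abundant ones reached that unadjusted p.

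The next group forms eIF2, the carrier of the initiator tRNA, and eIF2B, which recharges it with GTP, with the alternative tRNA carriers Eif2a and Eif2d. Eif2a had the smallest p of the 11, with normalised counts of 2749 and 3028 in WT_CTCF and 2610.3 and 2587 in MUT_CTCF. Both mutant libraries were the lower ones, and the mutant pair lay closer together (SD 16.2) than the wild-type pair (SD 197). Its log2 fold change was -0.15 (SE 0.0559) with an adjusted p of 0.137, and it was -0.082 without WT_CTCF 2. Eif2b5, the catalytic subunit of eIF2B and the most abundant of the group at 234 RPKM, had 30325 and 30629.7 normalised counts in WT_CTCF and 30062 and 31492 in MUT_CTCF. There the groups overlapped, the log2 fold change was 0.014 (SE 0.0257, adjusted p 0.869), and it was 0.026 with library size only, 0.0065 without WT_CTCF 1, 0.047 without MUT_CTCF 1 and -0.021 without MUT_CTCF 2. Across the group 8 of 11 lay below 0, with both MUT_CTCF libraries below both WT_CTCF libraries for 7 (63.6%), above for 1 (9.09%) and overlapping for 3. Of all genes 22.3% lay below in this way and 22.3% above. Of the abundant ones 47.5% lay below and 13.8% above. The lowest value was -0.21 for Eif2s3y, the Y-linked gene of the gamma subunit, at 4.37 RPKM, with normalised counts of 750.2 and 844 in WT_CTCF and 735 and 643 in MUT_CTCF (adjusted p 0.301). For this group edgeR's quasi-likelihood test, DESeq2 and the exact test passed 0, with 4, 2 and 4 genes at an unadjusted p under 0.05. By edgeR's quasi-likelihood test that p was reached by 36.4% of the group, 15.3% of all genes and 35.3% of the abundant ones.

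The 4 kinases that phosphorylate eIF2 under stress and so lower initiation were present at modest levels. Eif2ak1, the heme-regulated kinase and the most abundant at 14.3 RPKM, had normalised counts of 3410.4 and 3298 in WT_CTCF and 3321 and 3216 in MUT_CTCF, and its groups overlapped (log2 fold change -0.037, SE 0.0505, adjusted p 0.811). The value was -0.025 with library size only, -0.013 and -0.062 without WT_CTCF 1 and 2, and -0.060 and -0.016 without MUT_CTCF 1 and 2. Of its exon bases 487 are shared with Aimp2 on the other strand, so part of its reads may go uncounted. Eif2ak3 or PERK, which senses unfolded proteins in the endoplasmic reticulum, had the smallest p of the group. Its normalised counts were 1342 and 1372 in WT_CTCF and 1287 and 1278 in MUT_CTCF, lower in both mutant libraries, with a log2 fold change of -0.082 (SE 0.0744, adjusted p 0.679). Eif2ak2, the sensor of double-stranded RNA, had 0.096 and Eif2ak4, the sensor of uncharged tRNA, 0.038, and the groups of both overlapped. At an adjusted p under 0.05 and at an unadjusted p under 0.05 alike, 0 of 4 passed by edgeR's quasi-likelihood test, DESeq2 or the exact test.

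Eif3f, a subunit of the scaffold eIF3, was 1 of the members that passed as lower in MUT_CTCF. On mm9 this gene, ENSMUSG00000031029, lies at chr7:116077931-116086465. Its normalised counts were 19080.3 and 18724 in WT_CTCF (mean 18902, SD 252, n = 2) and 17321 and 17855 in MUT_CTCF (mean 17588, SD 378, n = 2). The lowest wild-type library lay above the highest mutant library, and the gap between them was wider than the gap within either group. The log2 fold change was -0.10 (SE 0.0287), a ratio of 0.93, with an adjusted p of 0.0288. With no filter on reads Eif3f did not pass (adjusted p 0.276). It did not pass by the exact test (adjusted p 0.0742), and leaving out 1 library at a time gave log2 fold changes from -0.13 to -0.082 with adjusted p from 0.11 to 0.489.

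Among the other eIF3 subunits, Eif3b, a core subunit and the most abundant at 283 RPKM, had 34418 and 34257 normalised counts in WT_CTCF and 33620.5 and 34773 in MUT_CTCF. The mutant libraries lay on either side of the wild-type pair, with a log2 fold change of -0.0059 (SE 0.0247, adjusted p 0.949), which was 0.0064 with library size only, -0.0030 and -0.010 without WT_CTCF 1 and 2, and 0.018 and -0.032 without MUT_CTCF 1 and 2. Eif3m, which binds Eif3f within the complex, had the lowest value of the group at -0.14 (SE 0.0432, adjusted p 0.0654). Its normalised counts of 5150.2 and 5437 in WT_CTCF and 4765 and 4859 in MUT_CTCF did not overlap. Of 13 subunits 11 lay below 0, the highest being Eif3d, the subunit that can bind a cap itself, at 0.0078. For 8 of them (61.5%) both MUT_CTCF libraries were below both WT_CTCF libraries and for 5 the groups overlapped, and the group median was -0.044. With library size only 10 of 13 lay below 0, with a median of -0.031. Among all genes 49.2% lay below 0 and 22.3% had both MUT_CTCF libraries below. Among the abundant ones these shares were 70.6% and 47.5%.

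The cap binding and helicase group holds the eIF4F proteins Eif4e, Eif4g1 and Eif4a1, their paralogs, and the helicase partners Eif4b and Eif4h. Eif4a1, the RNA helicase that unwinds leaders, had both the highest level (662 RPKM) and the smallest p of the group. Its normalised counts were 119281 and 118092 in WT_CTCF and 115619 and 114944 in MUT_CTCF. The pairs did not overlap, with the mutant one lower, but the log2 fold change of -0.042 (SE 0.0185) had an adjusted p of 0.255. Of 11 tested genes 10 lay below 0 (9 with library size only), the lowest being Eif4a2 at -0.065, and the exception was Eif4g3, a paralog of the scaffold Eif4g1, at 0.14. Eif4g3 had 1497 and 1723 normalised counts in WT_CTCF and 1738 and 1805 in MUT_CTCF, and its adjusted p was 0.337. Both MUT_CTCF libraries lay below both WT_CTCF libraries for 5 genes (45.5%) and above for 1 (9.09%), and overlapped for 5. Over all genes the shares were 22.3% below and 22.3% above, and over the abundant ones 47.5% and 13.8%. No gene of the group passed, that is 0 of 11 by edgeR's quasi-likelihood test (2 at an unadjusted p under 0.05), by DESeq2 (1) and by the exact test (1). By edgeR's quasi-likelihood test 15.3% of all genes and 35.3% of the abundant ones reached that unadjusted p.

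The proteins that block the cap complex include the 4E-binding proteins, which mTORC1 phosphorylates to release Eif4e, and Eif4enif1, which carries Eif4e into the nucleus. Eif4ebp1 was the most abundant at 470.4 RPKM, with normalised counts of 19387 and 18681 in WT_CTCF and 18397 and 18829 in MUT_CTCF. Its groups overlapped (log2 fold change -0.032, SE 0.0287, adjusted p 0.669), and the value was -0.020 with library size only, -0.0057 and -0.060 without WT_CTCF 1 and 2, and -0.016 and -0.051 without MUT_CTCF 1 and 2. Eif4ebp2 had 8659.7 and 8432 in WT_CTCF and 8719 and 8915 in MUT_CTCF on the same scale, a little higher in both mutant libraries, with 0.045 (SE 0.0353, adjusted p 0.612), which was 0.025 without WT_CTCF 2 and 0.028 without MUT_CTCF 2. Eif4enif1 had a log2 fold change of -0.024. Here 0 of 3 tested genes passed by edgeR's quasi-likelihood test, DESeq2 or the exact test, and 0 at an unadjusted p under 0.05 by any of these.

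Eif5b, the GTPase that joins the large ribosomal subunit to the small one, passed as higher in MUT_CTCF with the largest log2 fold change of the 65 members. On mm9 this gene, ENSMUSG00000026083, lies at chr1:38054855-38112424. Its normalised counts were 1397 and 1441 in WT_CTCF (mean 1419, SD 31.2, n = 2) and 1693 and 1683 in MUT_CTCF (mean 1688, SD 7.24, n = 2). The pairs lay far apart for their spread, the mutant pair being the higher. The log2 fold change was 0.25 (SE 0.0694), a ratio of 1.19, with an adjusted p of 0.0300. With no filter on reads Eif5b did not pass (adjusted p 0.241). In DESeq2 the adjusted p was 0.0541, and without any 1 of the 4 libraries it did not pass, with log2 fold changes from 0.23 to 0.27 and adjusted p from 0.106 to 0.484. Of its exon bases 1239 (15.9%) are shared with Rev1 on the other strand, and whether reads were counted by strand is unknown. Rev1, a DNA polymerase gene, had 1179.9 and 1136 normalised counts in WT_CTCF and 1168 and 1300.2 in MUT_CTCF, with overlapping groups and a log2 fold change of 0.092 (SE 0.0793, adjusted p 0.657).

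Eif5a, which helps ribosomes through stretches such as prolines and carries the modified lysine hypusine, was the most abundant of the same group at 1015 RPKM. It had 99966 and 100033 normalised counts in WT_CTCF and 96192 and 97476 in MUT_CTCF. The SD of the wild-type pair was 47.2, and both mutant libraries were lower, with a log2 fold change of -0.046 (SE 0.0192, adjusted p 0.211). Its paralog Eif5a2 had 0.10 and Eif6, which keeps free large subunits apart, -0.054. In this group 1 of 4 passed, Eif5b as higher, beside 1.56% of all genes.

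Eef1b2, the exchange factor that recharges eEF1A with GTP, had the smallest adjusted p of the 65 members. It is ENSMUSG00000025967, at chr1:63223399-63227060 on mm9, and was present at 429 RPKM. Its normalised counts were 46942 and 44897 in WT_CTCF (mean 45919.8, SD 1446, n = 2) and 42883 and 42591 in MUT_CTCF (mean 42737, SD 206, n = 2). Both mutant libraries lay below both wild-type ones, although the wild-type libraries differed from each other by about as much as the nearer of them differed from the mutant pair. The log2 fold change was -0.10 (SE 0.0237), a ratio of 0.931, with an adjusted p of 0.00552. With no filter on reads Eef1b2 did not pass (adjusted p 0.241). It passed in DESeq2 and in the exact test, and of the fits that left out 1 library it passed only without WT_CTCF 2 (adjusted p 0.00398). Without WT_CTCF 1 the log2 fold change was -0.072 (adjusted p 0.37), without MUT_CTCF 1 it was -0.11 (0.484) and without MUT_CTCF 2 it was -0.10 (0.489).

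Eef1a1, the factor that brings aminoacyl-tRNA to the ribosome, was the most abundant member. Its level was 3443 and 3418 RPKM in WT_CTCF and 3483 and 3502 RPKM in MUT_CTCF, higher in both mutant libraries, with a log2 fold change of 0.026 (SE 0.0145, adjusted p 0.408). Eef2, the translocase, had 206135 and 206447 normalised counts in WT_CTCF and 202562 and 209449 in MUT_CTCF, with a log2 fold change of -0.0020 and mutant libraries on either side of the wild-type pair. Of the other parts of the eEF1 complex, Eef1d, an exchange subunit beside Eef1b2, had 18923 and 18686 in WT_CTCF and 17596 and 17771 in MUT_CTCF, without overlap, and -0.089 (SE 0.0283, adjusted p 0.0719). Eef1g, the structural subunit, had overlapping groups and -0.030. Outside this complex, Eef1e1, a scaffold of the aminoacyl-tRNA synthetases, had 0.11 (adjusted p 0.324) with both mutant libraries higher. Of the 9 tested elongation genes 4 lay below 0 (3 with library size only) and 5 above. The mutant pair was wholly above the wild-type pair for 2 and wholly below it for 2, with 5 overlapping. The gene that passed, Eef1b2, did so as lower, 1 of 9 (11.1%) beside 1.61% of all genes. Among all genes 22.3% had the mutant pair wholly above and 22.3% wholly below, and among the abundant ones 13.8% and 47.5%. Whether the subunits differ from each other in their fold change was not tested.

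Eif2c2 is the older symbol of argonaute 2, the slicer of small RNA silencing, which is not a translation factor but carries the prefix. Listed as ENSMUSG00000036698 at chr15:72932055-73015377 on mm9, it had normalised counts of 11122 and 11877 in WT_CTCF (mean 11499, SD 534, n = 2) and 12436 and 12626 in MUT_CTCF (mean 12531, SD 135, n = 2). Both mutant libraries were above both wild-type ones, and the wild-type libraries differed from each other by more than the nearer of them differed from the mutant pair. The log2 fold change was 0.12 (SE 0.0330), a ratio of 1.09, with an adjusted p of 0.0219. With no filter on reads Eif2c2 did not pass (adjusted p 0.341). Without WT_CTCF 2 it passed (0.17, adjusted p 0.0152), and it did not pass without WT_CTCF 1 (0.077, adjusted p 0.538), without MUT_CTCF 1 (0.13, adjusted p 0.491) or without MUT_CTCF 2 (0.11, adjusted p 0.534). The other argonautes had log2 fold changes of -0.016 for Eif2c1, -0.095 for Eif2c4 and -0.41 for Eif2c3. The last of these had 194 and 237 normalised counts in WT_CTCF and 175 and 149 in MUT_CTCF, the lowest level of the tested members at 0.279 RPKM, and its adjusted p was 0.281.

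**Figure D3:**
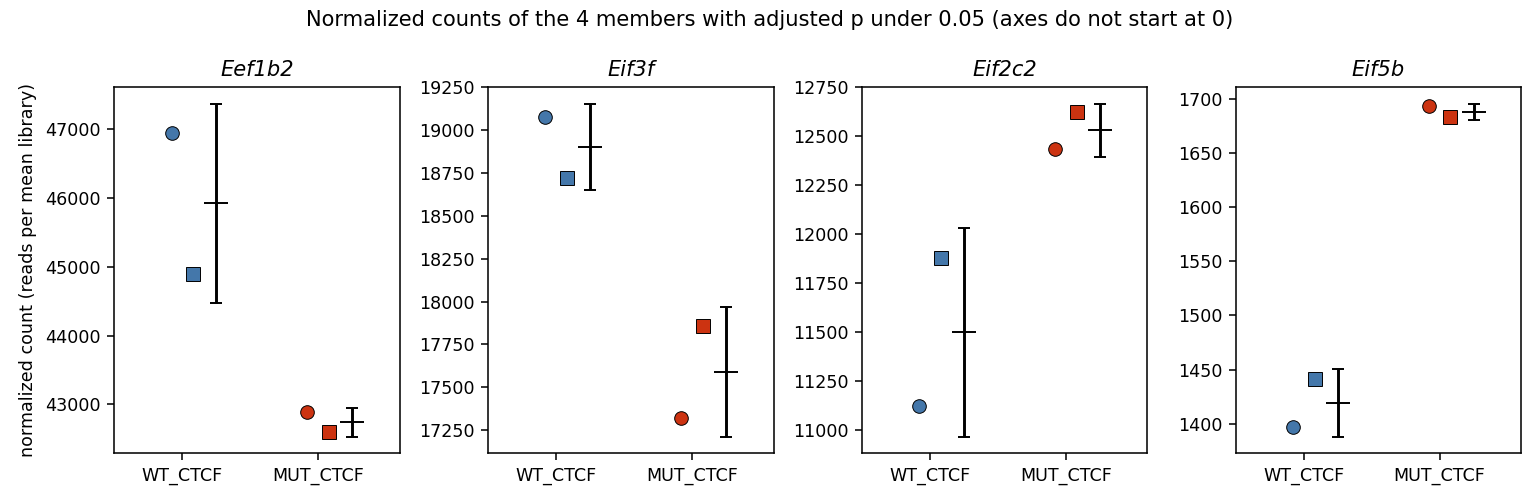
Normalised counts (y axis, not starting at 0, a different range in each panel) of the 4 members with an adjusted p under 0.05 in each WT_CTCF (blue) and MUT_CTCF (red) library, circles for replicate 1 and squares for replicate 2, with the mean and SD of each pair in black. Eef1b2 and Eif3f are lower in both mutant libraries, Eif2c2 and Eif5b higher, and the wild-type pairs of Eef1b2 (SD 1446) and Eif2c2 (SD 534) are the wide ones.

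The members that background knowledge counts among TOP mRNAs were Eef1a1, Eef1b2, Eef1d, Eef1g, Eef2, Eif3e, Eif3f and Eif3h. Of these 8, 2 passed as lower, Eef1b2 and Eif3f, beside 262 of all 16264 genes and 123 of the 1367 abundant ones, and in the exact test only Eef1b2 did. Of the 8, 7 had a log2 fold change below 0, beside 49.2% of all genes and 70.6% of the abundant ones, with a median of -0.029, or 6 with a median of -0.017 with library size only. The medians of all members (-0.037, or -0.025 with library size only) and of the ribosomal proteins (-0.072 or -0.060), whose mRNAs carry the same tract, were lower. Both MUT_CTCF libraries were below both WT_CTCF libraries for 4 of the 8, above for 1 and overlapping for 3. The shares below were 22.3% of all genes and 47.5% of the abundant ones, and those above 22.3% and 13.8%. In the printed windows of TOP members, Eif3f with its run of 15 bases and Eef1b2 with a run of 4 passed as lower, while Eef1a1 with a run of 10 and Eef2 with a run of 8 did not pass. The marked runs need not be the TOP tracts the cells used.

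Levels within a complex differed far more than the lines did. By RPKM the 13 eIF3 subunits ran from 3.02 for Eif3j, a loosely bound subunit, to 283 for Eif3b, a ratio of 93.6, or 87.0 when the length of the longest protein-coding transcript was used. The 5 eIF2B subunits ran from 9.40 for Eif2b3 to 234 for Eif2b5, a ratio of 24.9, or 14.4 per longest transcript. In eIF4F, Eif4e had 50.6 RPKM, Eif4g1 226 RPKM and Eif4a1 662 RPKM, the last 13.1 times the first, or 30.1 times per longest transcript. Among Eef1a1, Eef1b2, Eef1d and Eef1g of the eEF1 complex, Eef1a1, at 3461.5 RPKM, had 45.6 times the level of Eef1d, the lowest of these 4, or 30.6 times per longest transcript, while the paralog Eef1a2 was at 1.15 RPKM. For the eIF2 genes it ran from 4.37 RPKM for Eif2s3y to 70.9 RPKM for Eif2s2, the gene of the beta subunit.

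Such levels depend on how many reads can be placed. Of all stretches of 50 bases in the exons of Eif3j, 75.8% occur again elsewhere in the genome, and reads from them may not be placed uniquely. The share was 91.5% for Eif2s3x, 46.5% for Eef1a1, 41.3% for Eef1g, 34.4% for Eif4e, 32.4% for Eif1 and 26.3% for Eif4a1, with a median of 2.20% over the 65 tested members and 21 of them above 10%. For the members that passed the test it was 6.63% in Eif2c2, 5.07% in Eef1b2, 1.01% in Eif5b and 0 in Eif3f. Across the 13 eIF3 subunits the level and the GC content of the longest protein-coding transcript had a Spearman correlation of 0.64 (Pearson 0.65). Across the 65 members it was 0.37 (Pearson 0.32) and across 14654 protein-coding genes 0.11 (Pearson 0.11). These are correlations across genes within the same libraries, not across replicates, and the part of base composition in the levels was not tested.

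**Figure D4:**
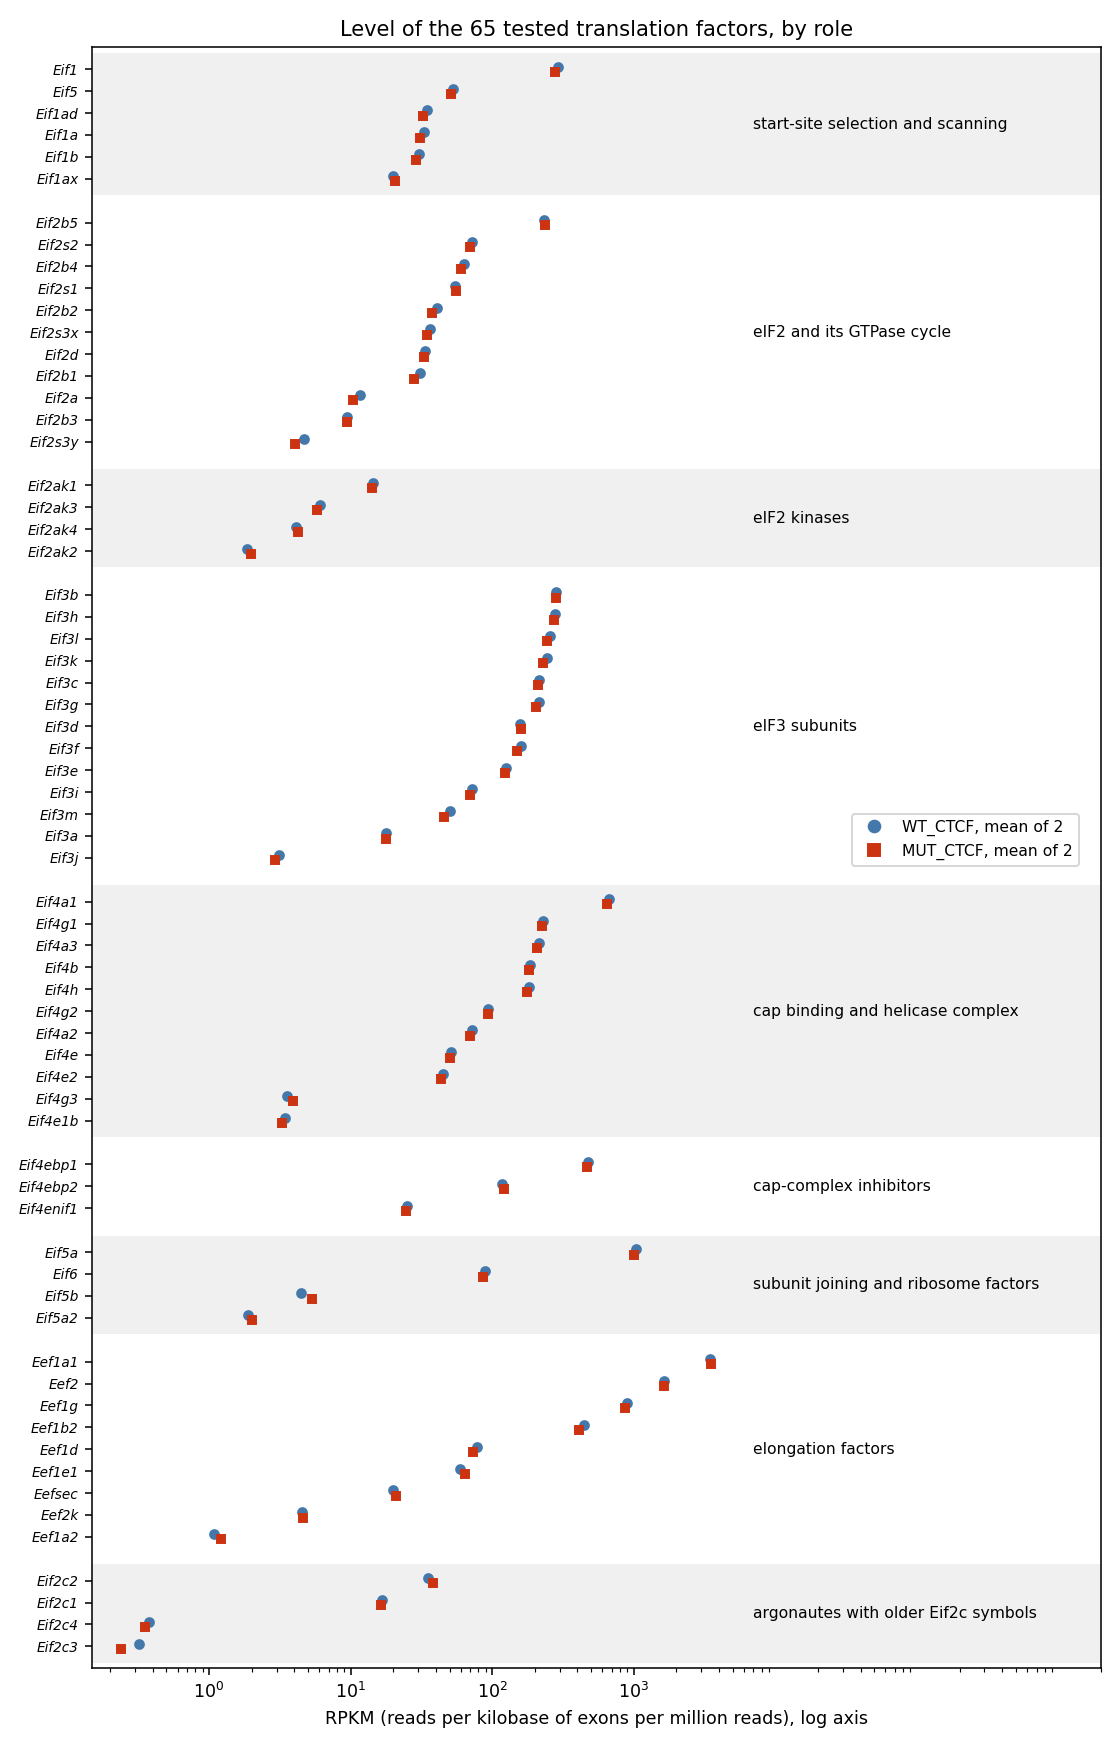
Mean level in RPKM (x axis, log scale) of each of the 65 tested members in WT_CTCF (circles, mean of 2 libraries) and MUT_CTCF (squares, mean of 2), grouped by role. Levels run from 0.279 RPKM for Eif2c3 to 3461.5 RPKM for Eef1a1, and the circle and square of a gene nearly coincide on this scale.

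Several members come as a ubiquitous gene and a paralog of narrower use, and the share of each in the summed RPKM of its family gives the balance between them. Eef1a2, the form of muscle and neurons, made up 0.0253% and 0.0383% of the eEF1A level in WT_CTCF and 0.0479% and 0.0213% in MUT_CTCF, and Eif5a2 0.194% and 0.169% of eIF5A in WT_CTCF and 0.186% and 0.216% in MUT_CTCF. Both were a small part of their family, and their groups overlapped. Eif4a2 held 9.67% and 9.81% in WT_CTCF and 9.78% and 9.42% in MUT_CTCF beside Eif4a1, and Eif1b held 9.71% and 9.24% in WT_CTCF and 9.58% and 9.43% in MUT_CTCF beside Eif1. The Y-linked Eif2s3y held 10.7% and 12.1% in WT_CTCF and 11.2% and 9.78% in MUT_CTCF beside its X-linked twin Eif2s3x, of which part of the reads may be uncounted. Eif4e2, a cap-binding relative that tends to repress, held 46.8% and 46.8% in WT_CTCF and 45.3% and 47.1% in MUT_CTCF beside Eif4e, again with overlap. These shares depend on the length used. Over the 4 libraries Eif4e2 held a mean of 46.5%, but 65.2% per longest transcript, so which of the pair is the more abundant is not settled, and for Eif2s3y the mean was 10.9% and 21.0%. Eif5a2 went from 0.191% to 0.115% and Eif1b from 9.49% to 6.20%. A change of length moves all 4 libraries alike and leaves the order of the libraries as it was.

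For a pair of these shares the groups did not overlap. Eif4g3 held 1.46% and 1.64% in WT_CTCF and 1.68% and 1.74% in MUT_CTCF beside Eif4g1. Eif4ebp2 held 19.7% and 19.9% in WT_CTCF (mean 19.8%, SD 0.117) and 20.7% and 20.6% in MUT_CTCF (mean 20.6%, SD 0.0121) beside Eif4ebp1. Both mutant libraries had the higher share in each case, by 0.165 and 0.863 percentage points between the means. With 2 libraries in each group the exact permutation test cannot give a p below 0.333 for either, and 8 families were compared.

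**Figure D5:**
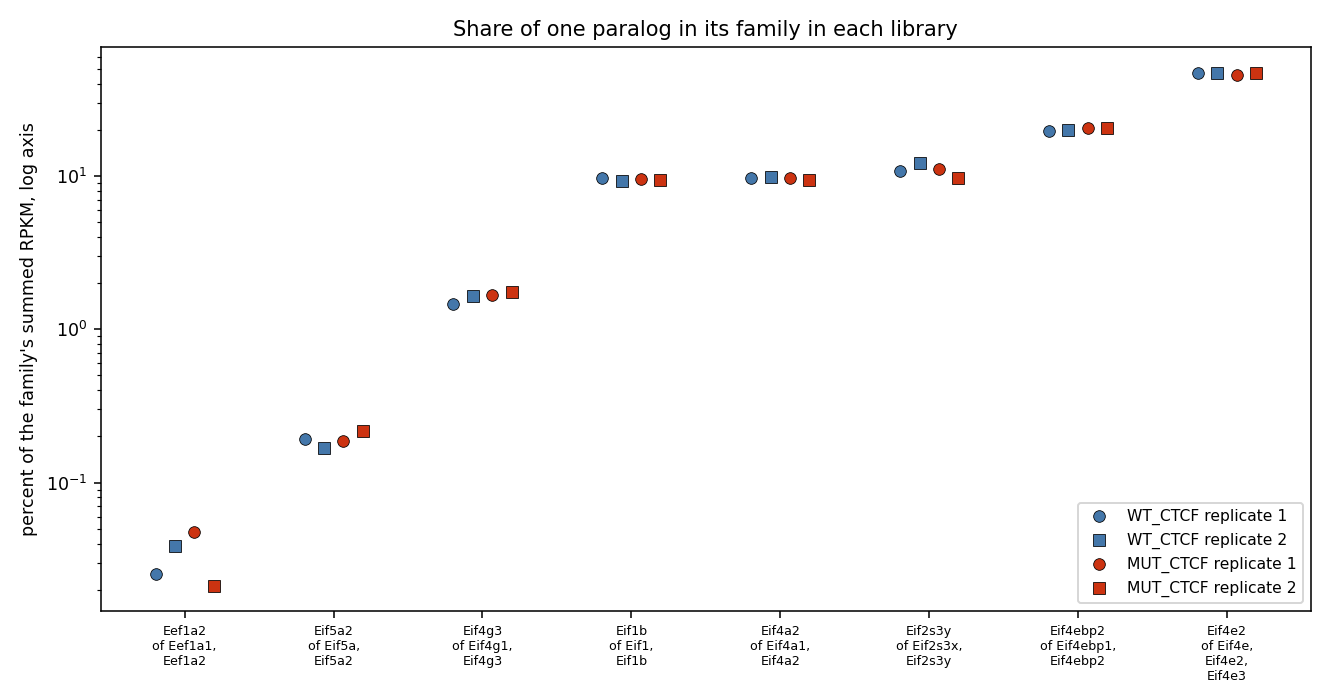
Share of 1 paralog in the summed RPKM of its family (y axis, percent, log scale) in each of the 4 libraries, WT_CTCF in blue and MUT_CTCF in red, circles for replicate 1 and squares for replicate 2. The shares run from 0.0213% for Eef1a2 to 47.1% for Eif4e2 (a mean of 65.2% per longest transcript), and apart from Eif4g3 and Eif4ebp2 the groups overlap.

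Other genes of the pathway were counted from lists by role. Of 10 symbols listed for termination and recycling 9 were in the file and all 9 were tested, while the other, Lgtn, is an older symbol of the member Eif2d, which is in the file under that name. Of these 9, 1 passed (11.1%), as lower, beside 1.61% of all genes. It was Abce1, the ATPase that splits ribosomes after termination, with 5872 and 5892 normalised counts in WT_CTCF and 5130.4 and 5205 in MUT_CTCF. The pairs lay well apart, with a log2 fold change of -0.19 (SE 0.0411, adjusted p 0.00366, but 0.145 with no filter on reads). Without WT_CTCF 1 its adjusted p was 0.057, without WT_CTCF 2 0.0597, without MUT_CTCF 1 0.451 and without MUT_CTCF 2 0.398.

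Among the genes of poly(A) binding and mRNA recruitment Pabpc1 and Larp1 passed as higher, and Dhx9 and Ddx3x as lower. Over all genes 1.56% passed as higher and 1.61% as lower. Pabpc1, the main cytoplasmic poly(A)-binding protein, had a level of 437 and 436 RPKM in WT_CTCF and 462 and 462 RPKM in MUT_CTCF (log2 fold change 0.081, SE 0.0188, adjusted p 0.00651). Larp1, which binds TOP tracts and caps, had 16831 and 17505 normalised counts in WT_CTCF and 18336 and 18438 in MUT_CTCF (0.099, SE 0.0289, adjusted p 0.0412). In both genes the mutant libraries were the higher pair. On the lower side, Dhx9, an RNA helicase, had 16036 and 16109.7 in WT_CTCF and 14414 and 13789.8 in MUT_CTCF (-0.19, SE 0.0302, adjusted p 2.32e-05), and the other was Ddx3x, a helicase that aids scanning of structured leaders (-0.14, SE 0.0329, adjusted p 0.00849). The groups of each of these 4 genes did not overlap. All 4 also passed by DESeq2, and by the exact test Dhx9 (adjusted p 3.6e-05) and Ddx3x (0.0155) did, while Pabpc1 (0.132) and Larp1 (0.101) did not. With no filter on reads none of these 4 genes passed edgeR's quasi-likelihood test. The adjusted p was then 0.0895 for Dhx9, 0.202 for Ddx3x, 0.176 for Pabpc1 and 0.325 for Larp1. Of the 4, only Dhx9 passed without WT_CTCF 1 (adjusted p 0.00122) and without WT_CTCF 2 (0.00179). In the same pair of fits Pabpc1 had 0.0986 and 0.104, Larp1 0.532 and 0.0795, and Ddx3x 0.108 and 0.108, and without either MUT_CTCF library the adjusted p of these 4 genes ranged from 0.179 to 0.505.

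Signalling to eIF2 was read from 9 genes of the eIF2 phosphatase and the integrated stress response. Beside 1.56% of all genes as higher and 1.61% as lower, 1 of the 9 passed as higher and 0 as lower. It was Trib3, a pseudokinase induced by ATF4, with 1036 and 925 normalised counts in WT_CTCF and 1395 and 1268 in MUT_CTCF. Both mutant libraries were the higher (log2 fold change 0.44, SE 0.0817, adjusted p 0.000308). With no filter on reads Trib3 did not pass (adjusted p 0.167). Its adjusted p was 0.000211 without WT_CTCF 1 and 0.0317 without WT_CTCF 2, and 0.484 and 0.398 without MUT_CTCF 1 and without MUT_CTCF 2. Atf4 itself, whose translation rises when eIF2 is phosphorylated, had 12197 and 11895 in WT_CTCF and 11998 and 12103 in MUT_CTCF, overlapping groups with a log2 fold change of 0.00048 (SE 0.0319, adjusted p 0.998). Ddit3, another target of ATF4, had 0.21 (SE 0.147, adjusted p 0.542). At an unadjusted p under 0.05 edgeR's quasi-likelihood test gave 2 of the 9 as higher and 1 as lower, beside 15.3% of all genes in either direction. In DESeq2 and in the exact test 1 passed as higher and 0 as lower. RNA levels do not show how much eIF2 was phosphorylated.

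Of the 14 genes of mTORC1 and of the kinases that act on translation factors 0 passed by edgeR's quasi-likelihood test (1 at an unadjusted p under 0.05), by DESeq2 (1) and by the exact test (2). By edgeR's quasi-likelihood test 15.3% of all genes reached that unadjusted p. The smallest p was that of Akt1s1, an inhibitory subunit of mTORC1, with 2527 and 2631 normalised counts in WT_CTCF and 2317 and 2375 in MUT_CTCF, lower in both mutant libraries (-0.14, SE 0.0572, adjusted p 0.219). Of the 6 enzymes that modify eEF2 and eIF5A 0 passed by any of the 3 tests, with 0 at an unadjusted p under 0.05, and Dph1, which starts the synthesis of diphthamide on eEF2, had the smallest p (-0.11, SE 0.0593, adjusted p 0.396).

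The 3 members that were not tested had few or no reads. Eif4e3, a cap-binding paralog, had 0 counts in every library, which allows at most 3 counts or 0.0740 CPM (counts scaled to library depth), for counting error only. The second Eef2k identifier, ENSMUSG00000073853, also had 0 counts, and all of its 1781 exon bases are shared with the first, so that reads there cannot be assigned to either. Eif4ebp3 had 5 and 2 counts in WT_CTCF and 2 and 8 in MUT_CTCF, and 501 of its 744 exon bases (67.3%) are shared with Ankhd1 on the same strand. In all, 20 of the 68 members share exon positions with another gene. Of the 4 that passed only Eif5b does, and among the 48 tested members that share none, 36 had a log2 fold change below 0, with a median of -0.035.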

How the data were processed

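RNA was measured in 4 libraries, 2 of WT_CTCF and 2 of MUT_CTCF. After trimming by Trim Galore 0.4.4 and alignment by STAR (mm9), the authors deposited raw counts, which are uniquely mapped reads per gene from HTSeq 0.9.1. Whether strand was used is not stated. The authors' edgeR table, which holds log2 fold changes, average log2 expression, p-values and false discovery rates, was not used. GENCODE M1 named 37205 of 37620 gene identifiers and gave exon lengths for RPKM.

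Genes passing filterByExpr (minimum count 10) were fitted with edgeR 4.0.16 in R 4.3.3 (TMM, quasi-likelihood test on condition alone), with Benjamini-Hochberg adjustment over 16264 genes and a call at an adjusted p under 0.05. TMM factors lay between 0.994 and 1.01, and the common dispersion was 0.00220. The standard error is the log2 fold change divided by the root of F. Tested on simulated counts, the fit found most changes of 2 times and few of 1.1 times, and a larger part of its calls was false at the smaller size.

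The test was also run by DESeq2 1.42.0 and edgeR's exact test, with DESeq2's size factors or library size only for scaling, with no filter or a filter of 10 reads in each library, with replicate as a block, and with each library left out. Other alternatives were the study's criterion (unadjusted p under 0.05, fold change above 2), an unadjusted p alone, core factors only (without argonautes, eIF2 kinases and 4E-binding proteins) and members that share no exon position. Added after seeing the data were members with under 10% of exon stretches of 50 bases repeated in the genome, levels per longest transcript, protein-coding genes at 50 RPKM or more, and the alternatives for pathway and marker genes.

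Full statistics are given for members with an adjusted p under 0.05 and, in each of 9 role groups, for the member with the smallest p and the one with the highest RPKM. From each pathway list the genes that passed are named, or else the one with the smallest p; 1 withheld item is not reported here. Any other gene was named after its values were seen. The members and lists were chosen with earlier results of these data known. Sequences are from RefSeq, build GRCm38.p6.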

Additional observations from a re-analysis of the deposited data

How the results depend on the processing

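With 2 members called higher and 2 called lower, the counts of higher and of lower were 1 and 2 in DESeq2, 2 and 1 in the exact test, 2 and 1 with library size only, 0 and 0 without a filter, 0 and 0 at the study's criterion, 3 and 17 at an unadjusted p, 1 and 2 in core factors only, and 1 and 2 in members that share no exon position. With a filter of 10 reads in every library they were 2 and 3, the added gene being Eif3m. With replicate number as a block in the model they were 2 and 4, the added genes being Eef1d and Eif3m, while over all genes that model gave 326 and 372. Leaving out 1 library gave 0 to 1 higher and 0 to 1 lower. In the narrower lists Eif2c2 or Eif5b is left out by construction. Over all genes, 253 higher and 262 lower became 129 and 184 in DESeq2, 272 and 245 in the exact test, 261 and 272 with DESeq2's size factors, 288 and 300 with 10 reads in every library, 260 and 152 with library size only, 26 and 3 without a filter, 154 and 58 at the study's criterion, and 1238 and 1245 at an unadjusted p. Leaving out 1 library gave 0 to 140 higher and 0 to 102 lower.

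The median log2 fold change of the members, -0.037, was -0.025 with library size only and -0.042 in core factors only, and leaving out 1 library gave -0.040 to -0.031. It moved by less than the spread between replicates (0.00345) under the others. Of 165 fold changes of 15 named members under alternatives, 162 kept their sign. The others were Eif2b5 at -0.021 without MUT_CTCF replicate 2, and Eif3b at 0.0064 with library size only and 0.018 without MUT_CTCF replicate 1. Leaving out 1 library gave -0.021 to 0.047 for Eif2b5 and -0.032 to 0.018 for Eif3b. All 132 values of 12 pathway and marker genes kept theirs. Where the alternative's construction does not show it, the cause was not tested.

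Without a filter, Eef1b2 had an adjusted p of 0.241, Eif3f 0.276, Eif5b 0.241 and Eif2c2 0.341. Over the alternatives other than leaving out a library, the adjusted p ranged from 0.000693 to 0.241 for Eef1b2, from 0.00975 to 0.276 for Eif3f, from 0.0133 to 0.241 for Eif5b and from 0.00445 to 0.341 for Eif2c2. Per longest transcript in place of exon length, the ratio of levels went from 93.6 to 87.0 in eIF3, from 16.2 to 19.0 in eIF2, from 24.9 to 14.4 in eIF2B, from 13.1 to 30.1 in eIF4F and from 45.6 to 30.6 in eEF1.

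There are 2 libraries of 1 clone per line, so the spread is that of cultures of a clone. The counts are of RNA and say nothing of protein or of translation itself. Members with repeated exon stretches, with Eif2s3x at 91.5%, and the 20 members that share exon positions had positions where reads are not counted for 1 gene alone. A count of 0 allows up to 0.0740 CPM. Deviations of libraries with the same replicate number correlated at -0.019 across genes.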

Other observations

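Of the identifiers with the same prefix that are not protein coding, Eif4a-ps4, a pseudogene, had 1145 and 1347 counts in WT_CTCF and 1037 and 1207 in MUT_CTCF. Counts in the same order were 54, 72, 48 and 47 for Eif5al3-ps, 25, 9, 21 and 17 for Eif3s6-ps2, 4, 0, 2 and 2 for Eif3s6-ps1, and 15, 5, 7 and 9 for Eif2c5, a processed transcript. Reads placed on a pseudogene may come from its parent gene, which was not tested.

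Across the 65 tested members the log2 fold change and the transcript length had a Spearman correlation of 0.32 and a Pearson correlation of -0.024, and across 14654 protein-coding genes 0.12 and 0.036. These are correlations across genes, which are not independent replicates.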
